A study of Mus musculus with 4 samples.

Results

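miR-423 is a microRNA (miRNA) gene whose hairpin gives 2 mature arms, mmu-miR-423-5p and mmu-miR-423-3p. Both arms were taken by name from a table of 750 miRNA assays measured by quantitative PCR in mouse lung, so they are 2 of 750. They were selected on their differences between hyperoxia and room air, and those differences are therefore given as a description, with no test. The 4 groups were newborn mice in room air, newborn mice in 95% oxygen, adult mice in room air and adult mice in 95% oxygen, each for 72 h. Newborns entered at under 12 h of age and were collected on day 3. Adults were 2 months old. Each group had 1 library, made from the right lung after the pulmonary artery had been flushed with saline, and dams changed between both atmospheres every 24 h. Strain, genotype, sex and the number of animals behind a library were not given in the sources used here.

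An miRNA hairpin is cut to a short duplex, and either strand can be loaded into an Argonaute protein, where its seed (bases 2 to 8 from the 5′ end) pairs with target transcripts. The arms of a hairpin are transcribed together, while loading and decay can differ between them. miR-423 is found in many tissues. Its 5p arm has been followed in blood as a marker of heart failure, and its 3p arm has been used as a reference in miRNA PCR. Long exposure to high oxygen injures the lung, and exposed newborn mice are a model of bronchopulmonary dysplasia, in which alveoli fail to form normally.

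The hairpin is 109 bases long and lies on the minus strand of GRCm38.p6 at chr11:77078064-77078172, per the RefSeq tables. It is inside Nsrp1 (chr11:77044292-77078437), a gene for a splicing protein of nuclear speckles on the same strand, 265 bases from that gene's annotated start. The tables used here give no exon boundaries. The hairpin is shown because its 2 arms, in capitals, are the items measured.

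mir-423 hairpin: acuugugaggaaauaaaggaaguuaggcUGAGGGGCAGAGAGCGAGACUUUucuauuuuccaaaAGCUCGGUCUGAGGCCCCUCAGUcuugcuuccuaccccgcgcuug

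The mature arms are shown next with their seeds in capitals, beside the 1 other mouse miRNA that shares a seed with either of them.

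mmu-miR-423-5p: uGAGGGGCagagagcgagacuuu
mmu-miR-423-3p: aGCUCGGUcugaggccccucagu
mmu-miR-6921-5p: uGAGGGGCaugagguaggaagc

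The 5p arm occupies bases 29 to 51 of the hairpin and the 3p arm bases 65 to 87. Both are 23 bases long. Bases 1 to 8 of the 5p arm, which include its whole seed, are perfectly complementary to bases 14 to 21 of the 3p arm. This is the longest Watson-Crick run between the arms. The seeds of the arms differ. Of 1679 mature mouse entries in the RefSeq table, 1 other (mmu-miR-6921-5p) has the 5p seed and 0 others have the 3p seed. mmu-miR-6921-5p had no assay here.

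Each library was read on 2 cards of 384 wells, with the 5p assay in row J of the first card and the 3p assay in row J of the second. Both assays carry human miRNA names, and the table pairs them with the mouse arms. The readout is the threshold cycle (Ct), the cycle at which a well crosses the detection threshold, so a lower Ct means more RNA. A level is given as the Ct of a reference minus the Ct of the arm, on a log2 scale on which 1 unit is 2-fold at perfect amplification. The reference was the small nucleolar RNA snoRNA202 of the arm's own card. As a further reference, the median Ct of the card's miRNA assays was used, taken over assays detected (Ct of 35 or below) in all 4 libraries. No read depth exists for this assay. Of the 750 assays, 468 to 507 were detected per library and 426 in all 4. Both arms were among the 426. The 2 assays sit on different cards and may amplify unequally, so the level of an arm was compared between libraries and never with the other arm.

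With 1 library per group, a difference has no replicate check. What was measured more than once per library was a set of 4 control RNAs, read on each card. The technical SD of a difference, from the gaps of these RNAs between cards, was 0.26 log2 for the newborn hyperoxia comparison and 0.33 for the adult one. It was 0.65 for adult against newborn in room air and 0.95 in hyperoxia. It leaves out variation between animals. The control RNAs were read at a Ct of 8.74 to 24.0, so this SD was not measured at the later Ct of the 5p arm, where differences were wider.

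In newborn lung both arms were higher after hyperoxia, and in adult lung they went opposite ways, with the 5p arm higher and the 3p arm lower. The 3p arm had a Ct of 22.0 in newborn room air and 19.1 in newborn hyperoxia. In adults its Ct was 20.2 under room air and 22.1 under hyperoxia. On the snoRNA202 scale these are levels of -6.71, -4.46, -6.59 and -8.31 log2. The newborn hyperoxia library was thus the highest and the adult hyperoxia library the lowest, with the room air libraries between them, close together on this scale. The difference was 2.24 log2 (4.73-fold higher) in newborns and -1.73 log2 (3.31-fold lower) in adults. With the deposited delta Ct the adult value was -1.50, because the authors referred the second card of adult room air to the first card's snoRNA202.

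The 5p arm was read much later, with a Ct of 29.4 in newborn room air and 26.3 in newborn hyperoxia. In adults its Ct was 33.2 under room air and 29.8 under hyperoxia. Its levels were -15.31, -12.80, -19.76 and -17.01 log2 in the same order. Each hyperoxia library lay above the room air library of its age, and both adult libraries lay below both newborn ones. The difference after hyperoxia was 2.51 log2 (5.70-fold) in newborns and 2.75 log2 (6.73-fold) in adults. The adult value rests on a room air well at Ct 33.2, close to the detection limit.

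**Figure D1:**
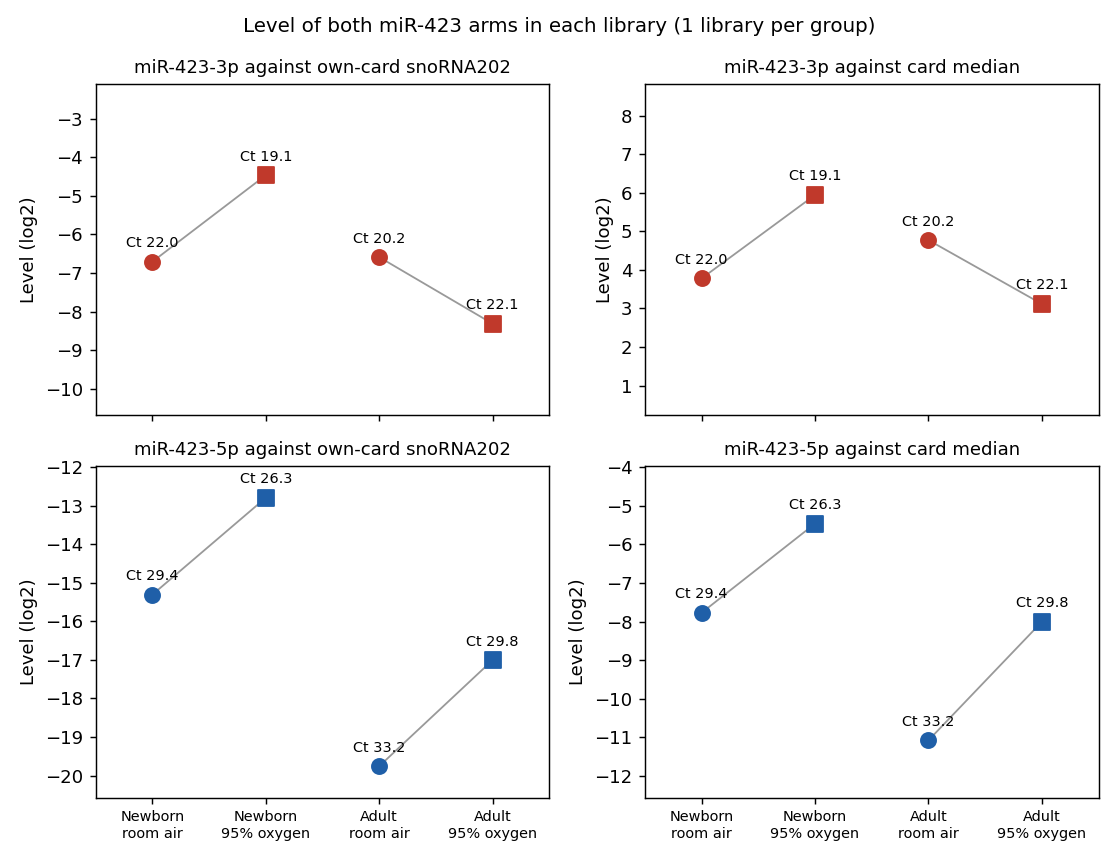
Level (log2) of miR-423-3p (red, upper panels) and miR-423-5p (blue, lower panels) in the 4 libraries, against own-card snoRNA202 (left) and the card median (right). Each point is 1 library with its Ct beside it, circles are room air and squares 95% oxygen, and lines join libraries of 1 age. The 3p line goes up from -6.71 to -4.46 in newborns and down from -6.59 to -8.31 in adults on the snoRNA202 scale, while both 5p lines go up.

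With the card median as reference the 3p levels were 3.78, 5.94, 4.77 and 3.12 log2, listed as above. The hyperoxia differences were then 2.16 in newborns and -1.66 in adults. The 5p levels were -7.77, -5.46, -11.08 and -8.01, with differences of 2.31 and 3.07. All 4 differences kept their direction and stayed past 2-fold.

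The order of the libraries was partly within the technical spread. The technical SD was measured on the snoRNA202 scale, so beside card-median values it is a rough guide only. For the 3p arm, newborn hyperoxia exceeded adult room air by 2.13 log2 (technical SD 0.84), and by 1.17 with the card median. Adult room air and newborn room air differed by 0.12 (technical SD 0.65) and cannot be ordered, while the card median put adult room air higher by 0.99. Newborn room air exceeded adult hyperoxia by 1.61 (technical SD 0.72), but by 0.66 with the card median, which is less than that SD. For the 5p arm, newborn hyperoxia exceeded newborn room air by 2.51 (technical SD 0.26). Newborn room air exceeded adult hyperoxia by 1.70 (technical SD 0.72) and by 0.24 with the card median, so the size of that step depended on the reference and its order is not settled. Adult hyperoxia exceeded adult room air by 2.75 (technical SD 0.33). The SDs beside the 5p steps were not measured at the later Ct of this arm, where differences were wider.

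Against all assays, the newborn differences of both arms were near the top. At least 2-fold higher after hyperoxia were 64 of 469 assays compared in newborns (13.6%), both arms among them. The 5p arm ranked 10 from the highest and the 3p arm 14. Under the card median 50 of 469 were (10.7%), again with both arms. In adults 17 of 448 assays were at least 2-fold higher (3.79%), among them the 5p arm at rank 3 from the highest. The 3p arm was among the 37 of 448 at least 2-fold lower (8.26%), at rank 21 from the lowest. Under the card median the adult counts were 22 higher (4.91%) and 29 lower (6.47%), with the arms on the same sides. The snoRNA202 split was 64 higher and 40 lower in newborns and 17 and 37 in adults, against 50 and 47, and 22 and 29, with the card median. The median of all assays compared was 0.13 log2 in newborns and -0.24 in adults, and -0.03 in each with the card median. Since the arms were chosen for these differences, the shares are background only.

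Differences in late wells were more often large, so each arm was also set beside assays of like Ct. Among the 260 newborn assays with a later Ct of 25 or below, 28 (10.8%) were 2-fold apart, and the 3p arm had the highest value of the 15 that were higher. Next were the assay with the rat name miR-632 (1.66 log2) and miR-667 (1.63). Among 250 such assays in adults, 7 (2.80%) were 2-fold apart, 0 higher and 7 lower. The 3p arm had the third lowest value. miR-29b, a repressor of collagen genes, was at -4.35 and miR-574-3p at -4.32. miR-574-3p sits in row L of the first card, whose Ct values in adult room air correlated with the mean Ct of the remaining libraries at r = 0.302 over 24 wells. In row J of the second card, which holds the 3p assay, that r was 0.939 to 0.982 over the 4 libraries. In row J of the first card, which holds the 5p assay, it was 0.801 to 0.939, lowest in newborn room air. The remaining 4 of the 7 were miR-345-5p (-1.60), the epithelial miRNA miR-200c (-1.26), let-7e (-1.16) and miR-28 (-1.07).

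For the 5p arm the matching assays differed more widely. The median absolute hyperoxia difference in adults was 0.27 log2 among assays with a later Ct of 25 or below and 0.92 among those over 30 and up to 35. In newborns, 39 of 145 assays with a later Ct over 25 and up to 30 were 2-fold apart (26.9%), and the 5p arm's difference was the fifth largest in size. In adults, 29 of 64 assays with a later Ct over 30 and up to 35 were 2-fold apart (45.3%), 11 higher and 18 lower. The 5p arm's difference was the sixth largest in size there. The share of 2-fold differences at that Ct was thus 45.3% against 2.80% at the Ct of the 3p arm.

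The wells of the same card row were compared as a check on position. In row J of the first card, the 15 other assays compared in newborns had a median of 0.38 log2 and ranged from -0.91 to 1.35, below the 5p arm's 2.51. In adults they had a median of -0.02 and ranged from -0.53 to 1.77, below its 2.75. In row J of the second card, the 12 other assays compared in adults ranged from -0.52 to 0.65, all above the 3p arm's -1.73. In newborns that row's 13 others had a median of 0.10 and ranged from -3.96 to 8.21, with 1 past 2-fold in each direction.

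**Figure D2:**
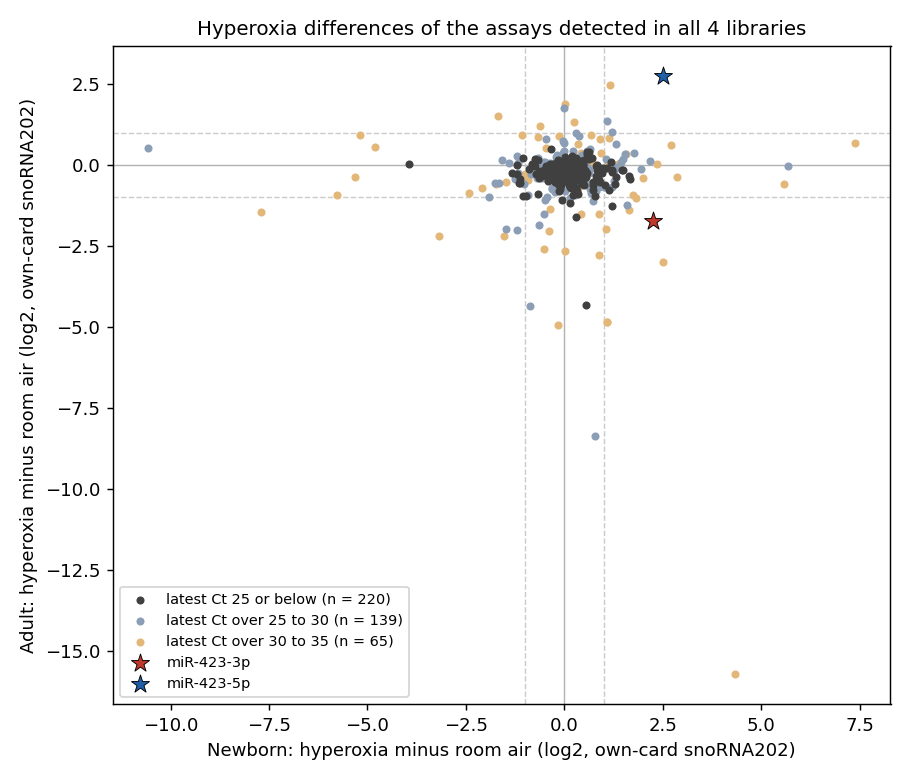
Hyperoxia minus room air (log2, own-card snoRNA202) in newborns on the x axis and in adults on the y axis, for the 426 assays detected in all 4 libraries. Colours give the latest Ct of an assay over the libraries, dashed lines mark 2-fold, and stars mark the arms. miR-423-3p lies at 2.24 and -1.73 and miR-423-5p at 2.51 and 2.75, the first in the lower right and the second in the upper right.

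The newborn and adult comparisons share no library. The adult hyperoxia difference minus the newborn one was -3.97 log2 for the 3p arm, and -3.82 with the card median. For the 5p arm it was 0.24, and 0.76 with the card median. With 1 library per group these contrasts of differences have no residual spread and were not tested. Of 426 assays, 10 (2.35%) were at least 2-fold higher in newborns and 2-fold lower in adults, as the 3p arm was, and 5 (1.17%) with the card median. Of those 10, the 3p arm and miR-200c were the 2 with a latest Ct of 25 or below. With the card median miR-200c was not among the 5. miR-1191 and miR-1199, both among the 10, had equal values (1.071 and -4.835), so 1 measurement may be counted under both names. miR-511, also among the 10, was at -15.7 in adults, far outside the values of the rest. At least 2-fold higher at both ages, as the 5p arm was, were 4 assays (0.94%), and 3 (0.70%) with the card median. The others were miR-1944, miR-342-5p and, on the snoRNA202 scale, miR-291a-3p.

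Hairpins with both arms measured gave a further background. They were formed by name, with rat names counted apart from mouse names. miR-136, miR-345 and miR-409 thus entered the newborn set under both names, and miR-345 the adult set. In newborns 84 other hairpins had both arms compared, and the median gap between the hyperoxia differences of their arms was 0.58 log2. The gap of miR-423 was 0.27, and 63 of the 84 had a gap at least as large. In adults 76 other hairpins were compared, with a median gap of 0.30. The gap of miR-423 was 4.48, and 0 of the 76 had a gap at least as large. Of these, 58 had their arms on different cards, as miR-423 does, with a median gap of 0.31. The nearest gap was that of miR-29b and its passenger strand miR-29b*, at 4.43, from -4.35 and 0.08. Arms that were both past 2-fold in opposite directions were found in 0 of the 76, and arms both past 2-fold in the same direction in 0 of the 84 newborn hairpins. With the card median the newborn gap of miR-423 was 0.15 and the adult gap 4.73, and these counts of 0 were the same. Since the arms were chosen for their hyperoxia differences, these counts are background only. The adult gap also rests on the 5p well at Ct 33.2 in adult room air, and the other hairpins were not matched on Ct.

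**Figure D3:**
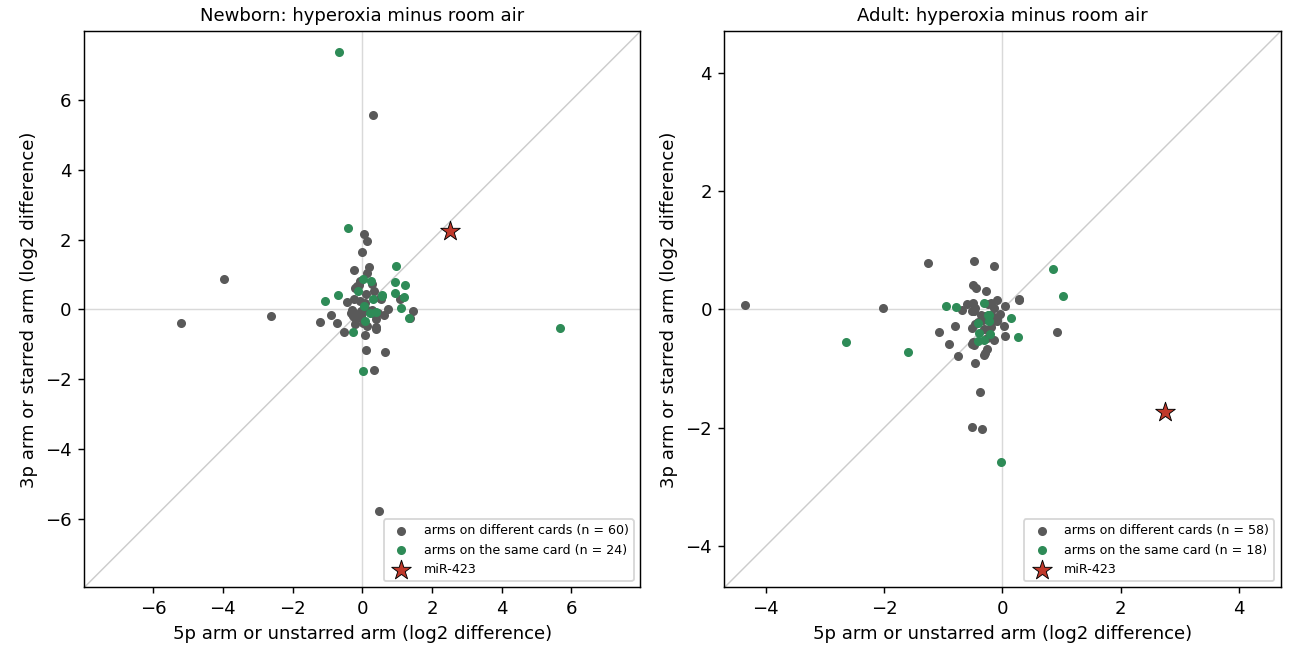
Hyperoxia minus room air (log2, own-card snoRNA202) of the 2 arms of each hairpin, in newborns (left) and adults (right). The x axis is the 5p or unstarred arm and the y axis the 3p or starred arm. Each point is 1 hairpin name, mouse or rat, coloured by whether its arms share a card. The diagonal marks equal differences. miR-423 (star) lies near the diagonal in newborns, with a gap of 0.27, and in the lower right in adults, with a gap of 4.48.

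The direction of each hyperoxia difference was the same over 8 references. Over these, the newborn difference of the 3p arm ranged from 1.93 to 2.75 log2 and its adult difference from -1.76 to -1.28. The newborn difference of the 5p arm ranged from 2.03 to 2.51 and its adult difference from 2.75 to 3.42. All 4 were past 2-fold under each of the 8. The control RNAs themselves moved far less with hyperoxia. Against own-card snoRNA202, U6, snoRNA135, U87 and the RNA Y1 were between -0.51 and 0.48 log2 in newborns and between -0.65 and 0.04 in adults on either card.

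**Figure D4:**
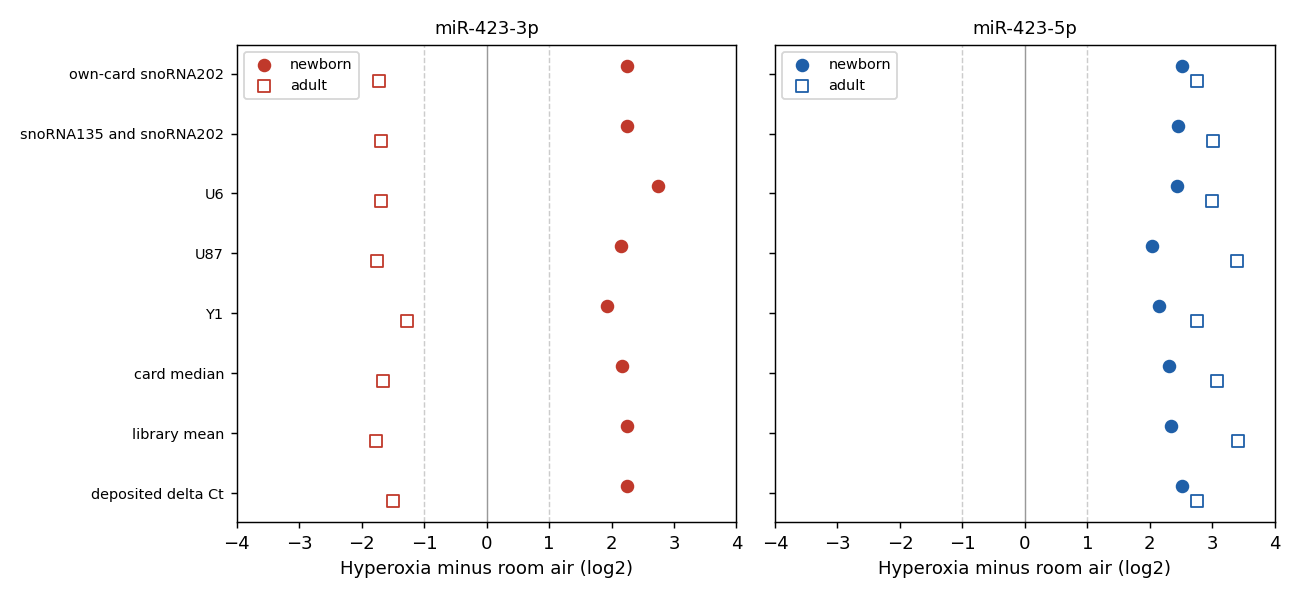
Hyperoxia minus room air (log2) of miR-423-3p (left) and miR-423-5p (right) under 8 references, with newborns as filled circles and adults as open squares, and dashed lines at 2-fold. Newborn values of the 3p arm lie between 1.93 and 2.75 and adult values between -1.76 and -1.28, while the values of the 5p arm lie above 2 at both ages.

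Age was not used to choose the arms. Adult minus newborn, the 5p arm was at -4.45 log2 in room air (21.9-fold lower, technical SD 0.65) and at -4.21 in hyperoxia (18.5-fold lower, technical SD 0.95). The 3p arm was at 0.12 in room air and at -3.85 in hyperoxia (14.4-fold lower). The gap between these 3p values is the same contrast as that between its hyperoxia differences (-3.97 log2), for which the arm was chosen. The age difference of the 3p arm in hyperoxia is thus not independent of the selection. In an additive model of age and oxygen fitted with limma to the 426 assays, the 5p arm fell by 4.33 ± 0.30 log2 (SE) from newborn to adult (limma with Benjamini-Hochberg, adjusted p = 0.00725). The 3p arm, at -1.87 ± 1.15 (SE), did not pass (limma, adjusted p = 0.283). Of the references tried, the 3p arm passed with Y1 alone (-3.64, limma, adjusted p = 0.0328). Against snoRNA202, Y1 was itself higher in adults in that arm's card, by 2.15 log2 under room air and 1.40 under hyperoxia. Of the 426, 152 passed (35.7%), 24 higher and 128 lower in adults, against 136 and 84 with the card median. The fit has 1 residual degree of freedom per assay, which is the disagreement between the 2 hyperoxia differences, and these were used to choose the arms. The residual SD was 0.12 for the 5p arm and 1.99 for the 3p arm, against a median of 0.28 over all assays. An arm chosen for like hyperoxia differences has a small residual SD by that choice, so the p of the 5p arm is favoured by it and is not independent of the selection. An arm chosen for opposite hyperoxia differences has a large residual SD in the same way. The p of the 3p arm is raised by it and does not show an absence of an age difference. Each group is 1 library of an unstated number of animals, so the p reflects spread among these libraries alone, not between animals.

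Falls with age were common on the snoRNA202 scale. At least 2-fold lower in adults were 187 of 435 assays in room air (43.0%), with the 5p arm among them, and 222 of 450 in hyperoxia (49.3%), with both arms. With the card median these were 110 (25.3%) and 123 (27.3%). The 5p arm was then at -3.31 and -2.55 and the 3p arm at 0.99 and -2.83. In room air the 3p arm ranged over the 8 references from -2.03 to 1.57, so its room air age difference has no settled direction. Its age difference in hyperoxia lay below 0 under all 8, from -5.25 to -2.45, and so did both age differences of the 5p arm. The fitted age difference of the 5p arm depended on the reference in size, from -5.49 with Y1 (limma, adjusted p = 0.00293) to -1.52 with U6 (limma, adjusted p = 0.0306). Both control RNAs differed with age themselves. In the 5p arm's card, adult minus newborn against snoRNA202, Y1 was 1.35 log2 under room air and 0.97 under hyperoxia. U6 was -2.65 and -2.98, while U87 (0.43 and -0.70) and snoRNA135 (-0.86 and -1.49) moved less than U6. A reference's own age difference enters the arm's value with its sign reversed. Most other assays in the row of the 5p arm were also lower in adults. Whether the position of the row or the particular miRNAs in it lie behind this was not tested. In row J of the first card, 10 of 14 others were at least 2-fold lower in adult room air, with a median of -3.70 against -0.39 for the card. In hyperoxia 12 of 15 were, with a median of -4.66 against -0.95 for the card, so the 5p arm's -4.21 was not lower than its row's median.

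A list of 21 other widely expressed miRNAs that often serve as PCR references was used as a comparison. In newborns 19 were compared, with a median hyperoxia difference of 0.22 log2 (all assays 0.13) and a range from -0.67 to 0.81. In adults 20 were compared, with a median of -0.32 (all assays -0.24) and a range from -0.89 to -0.04. At least 2-fold apart were 0 in either comparison. Among them, miR-16 was at 0.39 in newborns and -0.32 in adults, miR-93 at 0.40 and -0.46, miR-484 at 0.81 and -0.33, and miR-103 at -0.67 and -0.89. Both arms of miR-423 lay outside the range of this list at each age, but they were chosen for these differences. The list is also not matched to the 5p arm in Ct. Its detected members had a Ct of 23.8 or below, while the 5p arm reached 33.2 in adult room air. miR-191 had no crossing (Ct 40) in newborn hyperoxia, and miR-186 in all 4 libraries.

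The assays whose pattern over the 4 libraries was most like that of each arm were found by Euclidean distance between levels on the card-median scale, each centred on its own mean. Candidates had a Ct of 32 or below in all 4 libraries, and 4 libraries are few for such a measure. For the 3p arm the 5 nearest of 390 were miR-196b (0.91), a Hox cluster miRNA, miR-706 (1.12), miR-17* (1.12), the heart muscle miRNA miR-208a (1.26) and miR-141* (1.30), a passenger strand of the miR-200 family. The median distance was 2.77. All 5 were higher in newborn hyperoxia, by 0.97 to 1.62 log2, and lower in adult hyperoxia, at -1.92 to -0.59. They were picked for likeness over these same libraries, which favours shared directions, so this is no separate support. Their latest Ct ran from 25.9 (miR-706) to 31.8 (miR-141*), against 22.1 for the 3p arm. For the 5p arm the 5 nearest of 391 were farther away. They were miR-342-5p (1.85), miR-329 (1.98), an assay of the miR-297 group (2.05), the miR-434-5p assay (2.16) and miR-667 (2.30), against a median of 4.52. The distance between the 2 arms was 3.90, above the median distance from the 3p arm and below that from the 5p arm.

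The lung is a mixture of cells, and in bulk RNA fewer cells of a type and less RNA per cell cannot be told apart. The epithelial list and the heart and skeletal muscle list had medians that were higher in newborns and lower in adults after hyperoxia, as the 3p arm was. Of 6 listed epithelial miRNAs, 5 were matched by name (miR-200a, miR-200b, miR-200c, miR-141 and miR-429). Their median was 0.73 log2 in newborns (range 0.13 to 1.21) and -0.51 in adults (range -1.26 to -0.02). The remaining one, miR-375, was read under the name miR-375-3p and is left out of these values. It was at 0.074 in newborns and -0.165 in adults. Past 2-fold was 1 of the 5 in each, miR-200c. Under the card median miR-200c was at -0.94 in adults, short of 2-fold. On the second card, the assay with the rat name miR-200c was at 0.065 in newborns and -0.045 in adults. The assay with the rat name miR-200b was at -0.11 and 0.016. With the card median the list's medians were 0.53 and -0.19, and its members were no longer all on 1 side of 0 at either age. Their summed level relative to snoRNA202 was 0.633 in newborn room air and 1.16 in newborn hyperoxia, and in adults 0.878 under room air and 0.490 under hyperoxia. The part of the epithelium in the 3p values was not tested.

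The 5 muscle miRNAs had medians of 0.83 in newborns and -0.57 in adults, and of 0.62 and -0.25 with the card median. They summed to 0.0318, 0.0746, 0.0540 and 0.0364 in the same order of libraries. Of these, miR-133a of heart and skeletal muscle was at 1.29 in newborns and -0.57 in adults, and miR-1 at 0.83 and -0.16. An assay with the rat name miR-1, outside the list, was at 0.231 and -0.595. miR-206, of skeletal muscle, was at -1.03 and -0.58, and miR-208b, which lies within a muscle myosin gene, at -0.37 and -1.35. Past 2-fold were 1 higher and 1 lower in newborns and 1 lower in adults. The part of muscle in the 3p values was not tested.

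Smaller shifts of the same signs were seen in other lists on the snoRNA202 scale, as in the median of all assays. The leukocyte list had a newborn median of 0.39 over 4 members and an adult median of -0.31 over 5, with 0 past 2-fold in either, and sums of 0.678, 0.891, 1.10 and 0.853. The endothelial miRNA miR-126-5p was at 0.29 and -0.07, and the smooth muscle pair miR-143 and miR-145 had medians of 0.23 and -0.17. An assay named miR-126, left out of the endothelial list by its name, was at 0.466 and -0.008. With the card median the adult values of these lists were 0.01, 0.25 and 0.15, so their adult sign depended on the reference. Rat-named assays on the second card did not all share these signs. The one named miR-223 was at -0.336 in newborns and 0.48 in adults, against 0.47 and 0.028 for the listed miR-223. The one named miR-143 was at -0.081 and -0.336, against 0.088 and -0.229 for the listed miR-143. The 3 erythroid miRNAs (miR-451, miR-144 and miR-486) had medians of -0.69 in newborns and -0.32 in adults, with 0 past 2-fold.

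The 5p arm was higher at both ages. Among the lists, brain had positive medians at both, 0.50 over 2 members in newborns and 0.65 over 3 in adults, at sums of 0.00027 to 0.00037 of snoRNA202. Its members did not move alike. miR-9, of neural progenitors, was at -0.30 in newborns and -0.45 in adults, miR-137 at 1.30 and 0.65, and the neuronal miRNA miR-124, compared in adults alone, at 2.91. The liver miRNA miR-122 was at 3.95 in adults, from a level of -19.38 to -15.44, and was not detected in newborn room air. The part of these cell types in the 5p values was not tested.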

How the data were processed

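RNA of 4 lung libraries was read with TaqMan Megaplex cards after reverse transcription and preamplification, per the labels' protocols. The deposited tables hold Ct and delta Ct, both in log2 units, lower for more RNA. The authors' delta Ct is the Ct minus that of snoRNA202. In adult room air it used the first card's snoRNA202 on the second card (0 of 384 wells used their own, offset 0.225), so levels were recomputed as own-card snoRNA202 Ct minus Ct. The software and threshold behind Ct were not given in the sources used here. All 3072 Ct values were equal in both tables.

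An assay was compared where both libraries had it at Ct 35 or earlier (age model: in all 4), and Ct 40 was taken as no crossing. The age model used limma 3.58.1 in R 4.3.3 with eBayes and Benjamini-Hochberg adjustment at 0.05, and was tested on simulated data. Named assays were the 2 arms, the 5 nearest to each by profile, control RNAs, seed mates and the listed miRNAs. Assays named in Ct ranges, shared patterns or other hairpins were chosen after their values were seen. The members and lists were chosen with earlier results of these data known. Alternatives were other references, Ct limits, amplification of 1.9-fold per cycle, a variance trend and leaving out each library.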

Additional observations from a re-analysis of the deposited data

Results flagged for a closer look

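The hyperoxia difference of mmu-miR-423-3p had opposite directions at the 2 ages, 2.24 log2 in newborns and -1.73 in adults (own-card snoRNA202, 1 library per group). The difference between the ages was not tested.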

How the results depend on the processing

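No paired analysis was possible because each group has 1 library. The 4 hyperoxia differences of the arms kept their direction and stayed past 2-fold under all 10 alternative settings of reference and amplification. Those that moved by more than the technical SD were the following. The newborn 3p difference was 2.75 with U6 and 1.93 with Y1, and the adult 3p difference was -1.28 with Y1. The newborn 5p difference was 2.03 with U87 and 2.14 with Y1. The adult 5p difference was 3.40 with U87, 3.42 with the library mean and 3.30 with the card median over assays with a Ct of 30 or below. The age difference of the 3p arm in the limma model was -3.64 with Y1 (adjusted p = 0.0328), and its adjusted p was 0.196 to 0.78 under the other settings. With either hyperoxia library left out it was 0.12, and with either room air library left out -3.85, as values with no test, since no residual degree of freedom is left. These values are the age differences of the 3p arm in room air and in hyperoxia, the only age contrast such a fit leaves. The gap between them is the same contrast as that between the arm's hyperoxia differences (-3.97 log2), for which it was chosen, and was not tested. The age difference of the 5p arm passed under each setting that gave a p, which its selection favours. With 1 library left out it was -4.45 to -4.21, also with no test. At a Ct limit of 32 it could not be fitted, because its Ct in adult room air was 33.2. Age calls over all assays were 24 higher and 128 lower, against 196 and 71 with U6 and 10 and 291 with Y1. Newborn splits of 2-fold assays ran from 34 higher and 59 lower (Y1) to 78 and 28 (U6), and adult splits from 17 and 37 (snoRNA202) to 33 and 26 (card median at a Ct of 30 or below). The reference moved the room air age difference of the 5p arm from -5.80 (Y1) to -1.81 (U6). Y1 and U6 themselves differed with age against snoRNA202.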
